A study of Mus musculus with 12 samples.

Results

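Imprinted genes are expressed mainly or only from the copy inherited from 1 parent, either the mother's or the father's. The mark that tells the copies apart is DNA methylation laid down in the egg or sperm at a control region, and most imprinted genes lie in clusters where a single control region, often with a long noncoding RNA, sets several neighbors. Many of them act on growth of the embryo and placenta, on the nervous system or on metabolism, and several are shut down after birth. A set of 35 mouse imprinted genes was named for this account, and all 35 were found by Ensembl identifier among the 56980 genes of the count matrix. The rule that finds the set in the matrix is a list of names and uses no measured value, but the list was drawn up with earlier results of these data known. The counts do not separate the parental copies, so every value below is the summed expression of both, and imprinting itself was not measured.

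The cells were W-20, a murine bone marrow stromal cell (BMSC) line. WT cells received vehicle (PBS) or 50 nM parathyroid hormone (PTH) for 2 hours, and so did a stable W-20 line that carries a mutated YAP, the transcriptional coactivator held back by the Hippo pathway, in which a tyrosine is changed to phenylalanine (Y428F cells). There were 3 libraries in each of the 4 groups. The mutated YAP was introduced on a plasmid that drives a Flag-tagged protein from a viral promoter, and positive clones were kept under puromycin. The library titles name only the Y428F change, but the study's text describes the sequenced line as carrying a second change in YAP, of a serine to alanine, made to stabilize the protein. That change is shared by all Y428F libraries and by none of the WT libraries. No line with introduced unmutated YAP was analysed here, and no line with the serine change alone, so the mutations, the introduction of YAP and any other difference between the lines cannot be told apart. The groups were taken from the library titles, since the genotype entry of the Y428F libraries reads wild type.

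Each library held 17127897 to 19057319 counts of poly-A-selected RNA. *Yap1* had 180.5, 191.9 and 193.9 CPM, the count scaled to the size of the library, in the WT vehicle libraries and 149.5, 141.2 and 148.8 CPM in the Y428F vehicle libraries. All 3 Y428F libraries were below all 3 WT libraries (log2 fold change -0.37, SE 0.05, adjusted p = 7.7e-06 from edgeR), so an extra YAP transcript was not visible in this gene's counts, which cannot tell an introduced copy from the cell's own. Of 12 mesenchymal markers, 11 were detected, with *Col1a2* the highest and *Thy1* at 0 in every library. Their summed level was 32320 ± 2420 CPM (SD, n = 3) in WT vehicle libraries and 22330 ± 856 CPM (SD, n = 3) in Y428F vehicle libraries. Markers of other cells also differed in their summed level. Those of blood, led by *Hba-a1*, had 2.28 ± 0.640 CPM in WT cells against 8.60 ± 0.532 CPM in Y428F vehicle libraries, and those of endothelium, led by *Cdh5*, 1.42 ± 0.453 and 8.91 ± 1.00 CPM (SD, n = 3 each). Epithelial markers, led by *Krt8* and with *Epcam* at 0, had 0.624 ± 0.307 and 3.67 ± 0.799 CPM, while cartilage markers, nearly all *Sox9* and with *Acan* at 0, were at a moderate level of 55.2 ± 7.88 and 18.6 ± 0.735 CPM (SD, n = 3 each). Adipocyte markers stayed at 0.178 ± 0.131 and 0.269 ± 0.102 CPM (SD, n = 3 each) with *Adipoq* at 0, and skeletal muscle markers were at or near 0. These sums differ between the same groups as the lines described below, and their part in the differences between the lines was not tested. In bulk RNA, fewer cells of a kind and less RNA per cell cannot be told apart. The labels do not say that the 3 libraries of a group came from separate cultures, so p-values measure only the spread between these libraries.

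With or without PTH, 9 of the 35 genes had no counts in any of the 12 libraries, against 31817 of 56980 genes in the whole matrix (55.8%). These were *Meg3*, *Rian*, *Mirg*, *Rtl1* and *Dio3* of the cluster on chromosome 12, *Usp29* and *Zim1* beside *Peg3* on chromosome 7, the growth-suppressing transcription factor *Plagl1*, and *Zdbf2*. Another 7 stayed under a total of 10 counts and were not tested. Among them *Peg3*, a zinc finger protein, had a single count in 1 Y428F library and 2 counts in 1 WT library. *Dlk1*, a membrane ligand that holds back adipocyte differentiation, had 2 counts in a single WT vehicle library and 0 in the other 11. *Ndn* and *Magel2* of the Prader-Willi region, the placental growth regulators *Phlda2* and *Ascl2*, and *Nap1l5* had at most 3 counts in any library. A count of 0 in a library allows up to 3 counts there, for counting error alone.

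**Figure D1:**
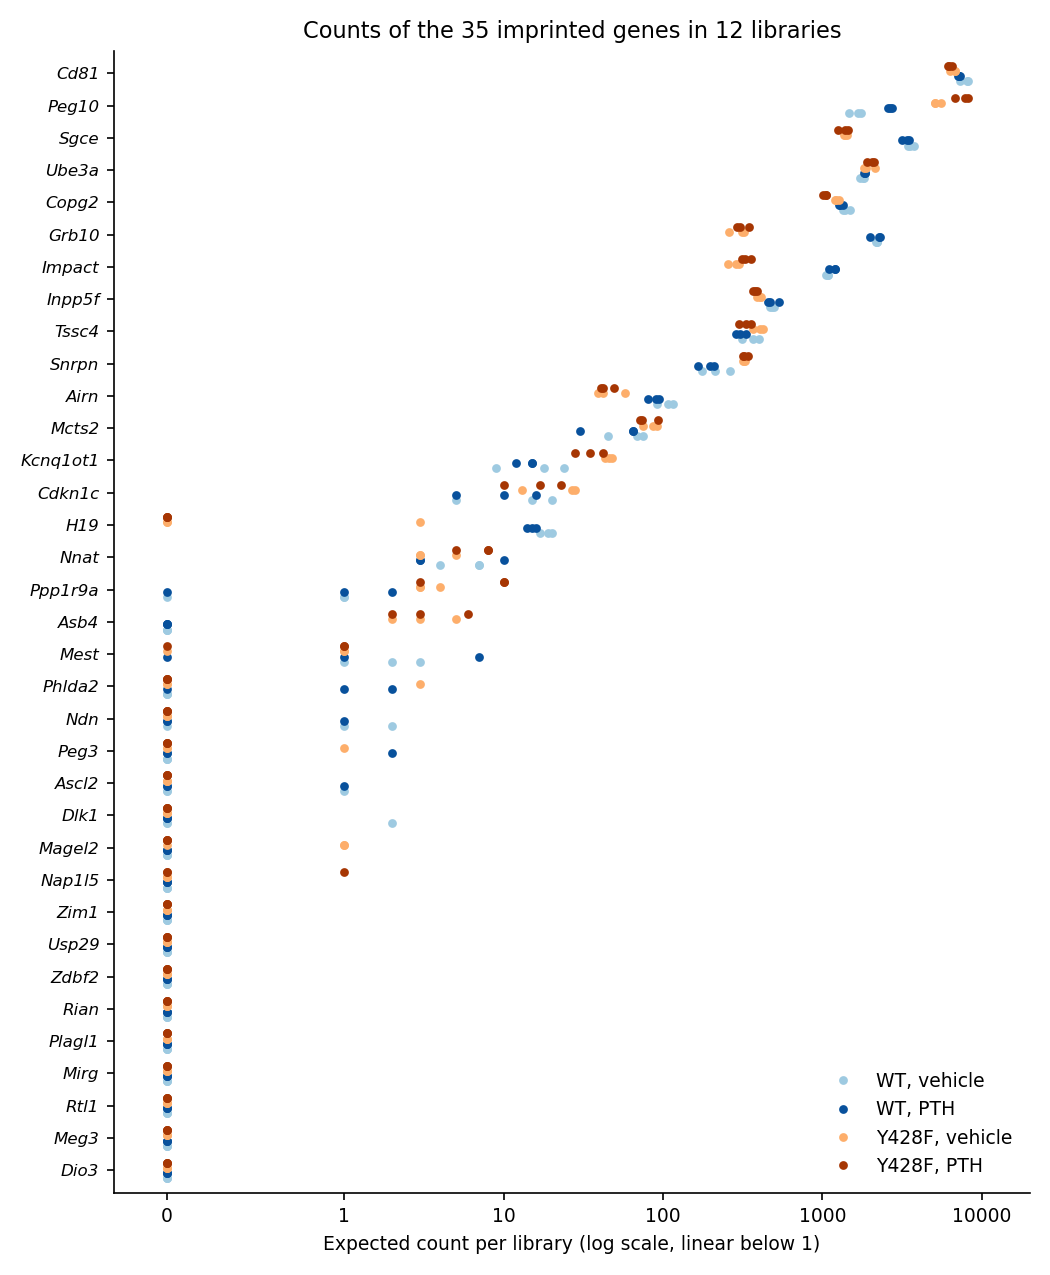
Expected counts of the 35 imprinted genes, 1 row per gene ordered by total, with 1 point per library and the 4 groups in colors. The horizontal axis is logarithmic above 1 count; 9 genes sit at 0 in all 12 libraries, and *Grb10*, *Impact* and *Sgce* show WT and Y428F libraries apart.

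The other 19 genes passed the filter of 10 counts over 12 libraries, and 12 of them had a mean of at least 2 CPM. Per length, the most abundant was *Cd81*, a tetraspanin of the cell surface, at a mean of 480.6 TPM, a count scaled to library size and gene length, over the 12 libraries, followed by *Peg10*, a gene derived from a retrotransposon, at 165 TPM. *Sgce*, a sarcoglycan of the membrane, had 46.1 TPM and *Tssc4* 45.8 TPM. *Grb10*, an adaptor that restrains insulin and IGF receptor signaling, had 31.8 TPM, and *Copg2*, a coat protein of transport vesicles, 28.9 TPM. These levels divide by the full exon length of the gene. With the mean transcript length in its place *Cd81* still ranked first at 557.6 TPM, but *Peg10* came to 74.8 TPM and *Sgce* to 93.8 TPM. *Copg2* came to 45.55 TPM, *Grb10* to 35.6 TPM and *Tssc4* to 32.5 TPM, so the order below *Cd81* depended on the length used.

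The share of imprinted genes that changed with PTH was near that of all genes in both lines. In WT cells, 3 of 17 tested genes were upregulated and 0 were downregulated, where 6.88% of all 15583 genes tested were upregulated, 4.91% were downregulated and 11.8% changed in either direction. At an adjusted p under 0.01 with a log2 fold change beyond 0.3, which 5.27% of all genes met, 1 gene of the set, *Peg10*, was left. The median log2 fold change was 0.0075 for the set and -0.0148 for all genes. In Y428F cells, 2 of 19 were upregulated and 0 downregulated, against 12.4% of 17691 genes that changed, 6.61% upward and 5.78% downward. The medians there were 0.024 for the set and -0.0067 for all genes. Both comparisons use their own vehicle libraries, and a gene was called at an adjusted p under 0.05, by the quasi-likelihood test of edgeR adjusted over all genes after Benjamini and Hochberg.

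Among the genes of the set called with PTH, *Peg10* had the largest response in both lines. It lies at chr6:4747306-4760517 (GRCm39, plus strand), and its product, a retroviral Gag-Pol-like protein expressed from the father's copy, is needed for the placenta. In WT cells it stood at 88.1, 83.0 and 93.5 CPM with vehicle and 153, 168 and 154 CPM with PTH. In Y428F cells it stood at 278, 282 and 276 CPM with vehicle and 379, 458 and 431 CPM with PTH. In each line the PTH libraries all exceeded the vehicle libraries, and the Y428F libraries all exceeded the WT libraries. The fold change with PTH was 1.80 in WT cells (log2 0.85, SE 0.07, adjusted p = 2.58e-06 from edgeR) and 1.52 in Y428F cells (log2 0.60, SE 0.07, adjusted p = 2.99e-06 from edgeR). The response in Y428F cells was smaller by 0.24 on the log2 scale (SE 0.09), but this difference did not pass the adjustment over all genes (adjusted p = 0.578 from edgeR).

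*Impact*, which restrains the stress kinase GCN2 and so bears on the control of translation, was the other gene upregulated by PTH in both lines. With vehicle and with PTH, WT cells had 57.2, 59.8 and 58.0 CPM and then 70.3, 67.7 and 70.0 CPM. Y428F cells had 13.9, 15.1 and 15.7 CPM and then 19.9, 17.7 and 18.1 CPM. The PTH libraries lay above the vehicle libraries without overlap in both lines, 1.19-fold in WT cells (log2 0.26, SE 0.07, adjusted p = 0.0215) and 1.24-fold in Y428F cells (log2 0.32, SE 0.08, adjusted p = 0.00917, both from edgeR). These calls were less firm than that of *Peg10*. In WT cells the adjusted p was 0.0695 with library totals, 0.0715 without vehicle replicate 3 and 0.0892 without PTH replicate 1, and in Y428F cells it was 0.056 without vehicle replicate 1, all from edgeR.

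*Ube3a*, the ubiquitin ligase of Angelman syndrome, was the third gene called in WT cells. It had 96.6, 97.7 and 96.5 CPM with vehicle and 108, 114 and 108 CPM with PTH, which do not overlap. The log2 fold change was 0.19 (SE 0.06, adjusted p = 0.0468 from edgeR). The call held under 5 of 13 alternatives. It was lost with library totals, with the replicate block and with no filter on low counts (adjusted p = 0.156, 0.12 and 0.0727), and without vehicle replicate 2 or 3 or any PTH replicate (adjusted p from 0.0583 to 0.153, all from edgeR). In Y428F cells, at 102, 109 and 100 CPM with vehicle and 105, 119 and 112 CPM with PTH, the libraries overlapped and the gene did not pass the test (adjusted p = 0.244 from edgeR). *Copg2* had 65.7, 63.9 and 66.3 CPM with vehicle and 56.3, 59.5 and 58.3 CPM with PTH in Y428F cells, apart but not past the threshold (log2 -0.17, adjusted p = 0.0734 from edgeR).

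None of the 19 tested genes passed the test for a difference in response between the lines by edgeR, and DESeq2 also called 0 of them. At an unadjusted p under 0.05, edgeR gave 2, *Peg10* and *Copg2*. Over all genes tested, 0.413% passed this test after adjustment.

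**Figure D2:**
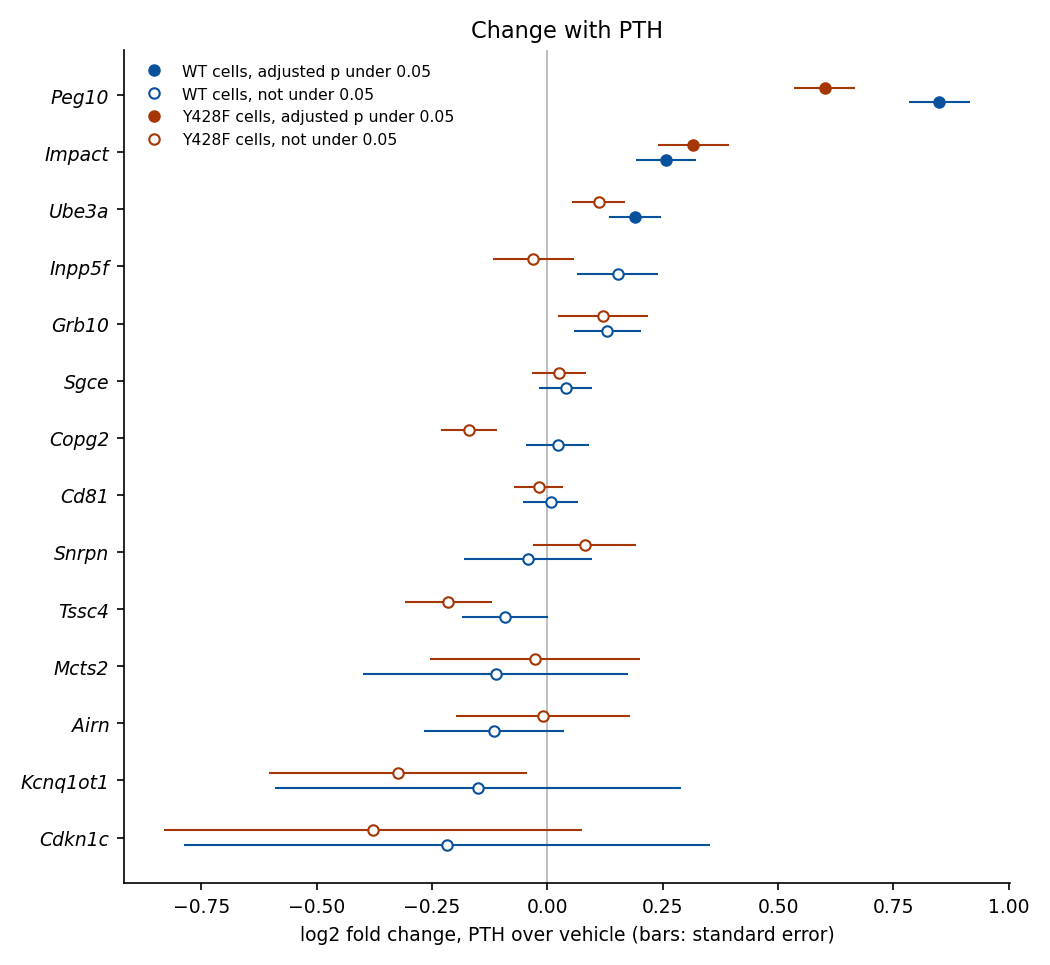
Log2 fold change with PTH, with standard error, for the 14 imprinted genes with at least 150 counts in all, in WT and in Y428F cells. Filled points have an adjusted p under 0.05 from edgeR; *Peg10* lies farthest to the right in both lines, *Impact* is filled in both, and *Ube3a* in WT cells.

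The lines differed far more than the treatments. With vehicle, 12 of 19 tested genes differed between Y428F and WT cells, 4 higher and 8 lower in Y428F cells. The background is high here, since 45.1% of all 17691 genes tested differed, 22.4% higher and 22.7% lower. With PTH, 13 of 19 differed, 5 higher and 8 lower, against 45.7% of all genes, 22.8% higher and 23% lower. At an adjusted p under 0.01 with a log2 fold change beyond 0.3, which 31% of all genes met with vehicle and 31.6% with PTH, 8 genes of the set were left with vehicle, without *Cd81*, *Copg2*, *Inpp5f* and *Asb4*, and 10 with PTH, without *Cd81*, *Asb4* and *Ppp1r9a*. The median absolute log2 fold change was 1.21 against 0.41 for all genes with vehicle, and 1.10 against 0.43 with PTH. The signed medians were -0.24 for the set against 0.01 for all genes with vehicle, and -0.0017 against 0.02 with PTH. *H19*, *Asb4*, *Ppp1r9a* and *Mest* passed the filter through the libraries of 1 line only, so the filter itself favored a difference, and their calls carry no weight here. Without these 4 genes, 10 of 15 differed with vehicle and 10 of 15 with PTH, 3 higher and 7 lower each time. The median absolute log2 fold changes were then 0.72 and 0.58. The shares and medians of all genes still include such genes and genes with few counts, so they are no like comparison. Among the 23 tested genes that set or keep imprints, given below, 69.6% differed with vehicle and 73.9% with PTH. These vehicle libraries are the ones used in the PTH comparisons above.

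**Figure D3:**
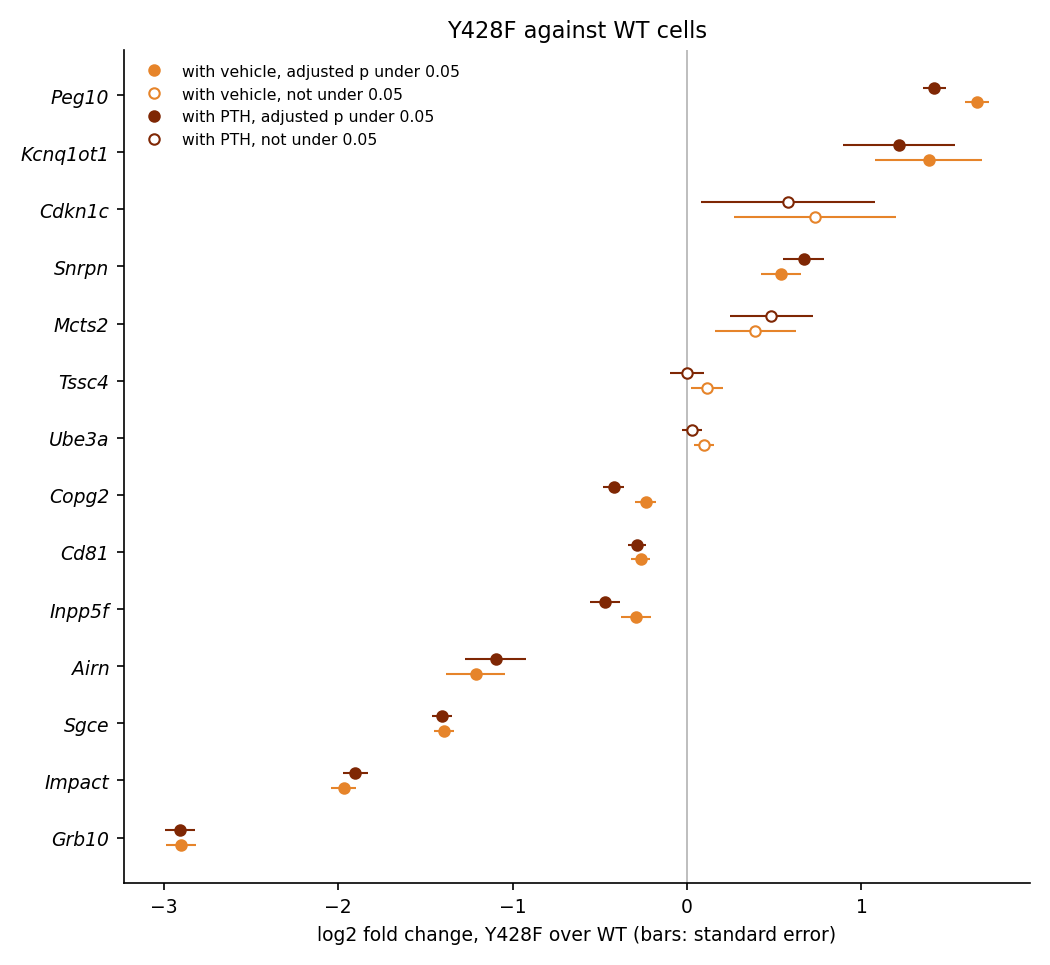
Log2 fold change of Y428F over WT cells, with standard error, for the 14 imprinted genes with at least 150 counts in all, with vehicle and with PTH. Filled points have an adjusted p under 0.05 from edgeR; *Grb10*, *Impact*, *Sgce* and *Airn* lie below -1 and *Peg10* and *Kcnq1ot1* above 1 under both treatments.

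*Grb10* had the largest difference among the well-expressed genes. It lies at chr11:11880498-11988683 (GRCm39, minus strand) and is expressed from the mother's copy in most tissues and from the father's in neurons, which use different starts. It had 114, 126 and 118 CPM in WT cells with vehicle and 14.3, 15.9 and 17.7 CPM in Y428F cells with vehicle. With PTH it had 136, 139 and 116 CPM in WT cells and 19.1, 16.3 and 16.7 CPM in Y428F cells. The lowest WT library was several times above the highest Y428F library. The log2 fold change was -2.90 with vehicle (SE 0.09, adjusted p = 6.8e-16) and -2.91 with PTH (SE 0.09, adjusted p = 6.55e-16, both from edgeR). The only protein-coding gene within 1 Mb at 4 CPM or more and outside the imprinted lists, *Fignl1*, went the other way, with a log2 fold change of 1.29 with vehicle, and the median of chromosome 11 was 0.18. The 100 bases before each of the 2 annotated *Grb10* starts are shown because the gene has the largest difference and its starts differ in sequence (RefSeq, GRCm38.p6, minus strand, CG dinucleotides in capitals). The upstream start (chr11:12037421-12037520) has 12 CG and the downstream start (chr11:12027972-12028071) has 4. The counts are summed over the gene and do not say which start was used.
Grb10 upstream start: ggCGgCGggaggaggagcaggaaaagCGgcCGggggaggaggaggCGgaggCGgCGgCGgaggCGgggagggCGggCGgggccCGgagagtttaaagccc
Grb10 downstream start: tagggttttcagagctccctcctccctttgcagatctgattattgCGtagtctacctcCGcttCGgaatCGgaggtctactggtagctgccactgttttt

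*Peg10* and *Sgce* moved in opposite directions between the lines. They are a head-to-head pair on chromosome 6, both expressed from the father's copy, and their annotated starts lie 98 bases apart, *Sgce* at chr6:4672057-4747207 on the minus strand (GRCm39). With vehicle, *Sgce* had 188, 196 and 201 CPM in WT cells and 75.9, 72.4 and 74.4 CPM in Y428F cells. With PTH it had 206, 194 and 199 CPM in WT cells and 77.1, 69.9 and 79.4 CPM in Y428F cells. The lines did not overlap under either treatment, while vehicle and PTH libraries overlapped within each line. *Sgce* was lower in Y428F cells by a log2 fold change of -1.40 with vehicle (adjusted p = 6.7e-14) and -1.40 with PTH (adjusted p = 6.78e-14, both from edgeR). *Peg10* was higher by 1.66 with vehicle (adjusted p = 7.4e-14) and 1.42 with PTH (adjusted p = 6.08e-13, both from edgeR).

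As a ratio of levels per length, *Peg10* over *Sgce* was 0.926 ± 0.0505 in WT vehicle libraries, 1.63 ± 0.129 with PTH, 7.70 ± 0.253 in Y428F vehicle libraries and 11.5 ± 1.72 with PTH (SD, n = 3 each). The ratio rose 1.76 times with PTH in WT cells and stood 8.31 times higher in Y428F than in WT cells with vehicle. Only the proportions between groups are free of the length used, since with the mean transcript length the 4 ratios were 0.206, 0.363, 1.72 and 2.57. Outside the imprinted lists, the protein-coding genes within 1 Mb at 4 CPM or more, *Pdk4*, *Col1a2*, *Bet1* and *Gng11*, had a median log2 fold change of -0.12 between the lines with vehicle, from -0.73 to 0.78. Of the listed imprinted genes nearby, *Casd1* and *Pon3* had log2 -0.19 and -0.94 (adjusted p = 0.0181 and 1.31e-09 from edgeR) and *Pon2* log2 0.13, which did not pass the test (adjusted p = 0.0727 from edgeR). Farther along the same cluster, *Asb4*, part of a ubiquitin ligase, had 0 counts in all 6 WT libraries and 3, 2, 5, 2, 3 and 6 counts in the Y428F libraries. It passed the filter on its Y428F counts alone, so its calls between the lines are no independent result, and no fold is given because the counts lie at or near the limit that 0 counts allow. *Ppp1r9a*, a neuronal actin-binding scaffold, had 2 counts in WT and 10 in Y428F vehicle libraries, and 3 and 23 with PTH. It too reached 10 counts only through the Y428F libraries. The ratio was 4.89 with vehicle (95% counting interval 1.04 to 45.9) and 7.15 with PTH (95% counting interval 2.16 to 37.2). These intervals cover counting error only and, since the filter favored a difference, are no test of the lines. By edgeR the vehicle comparison was not called (adjusted p = 0.115).

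**Figure D4:**
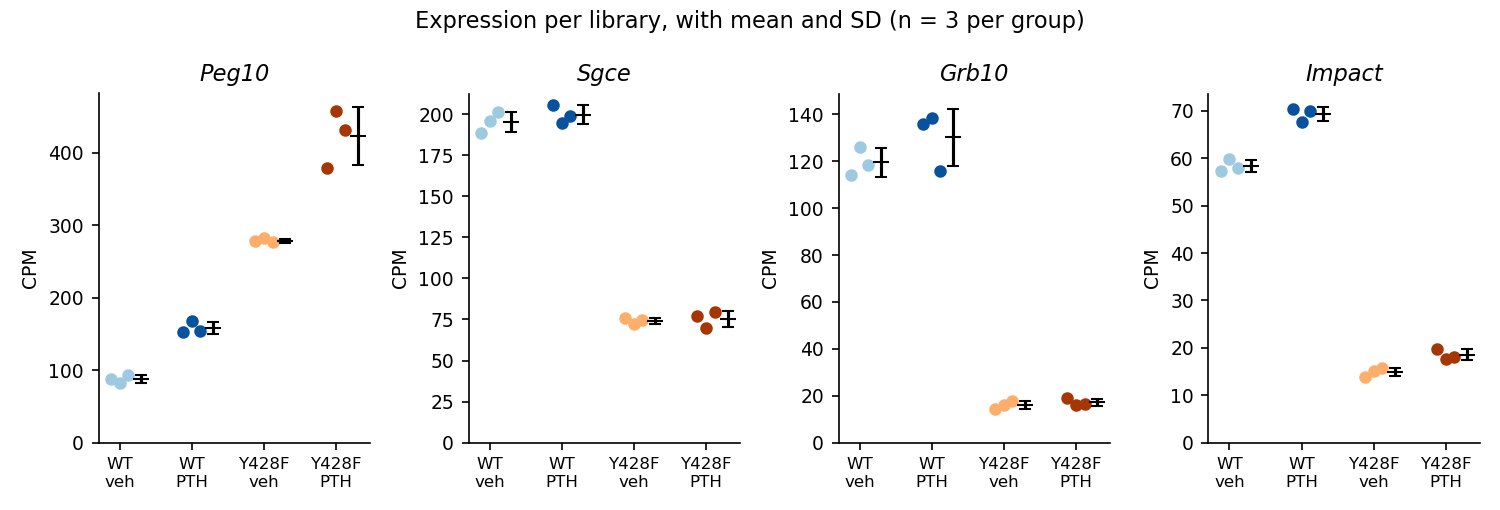
CPM of *Peg10*, *Sgce*, *Grb10* and *Impact* in each of the 12 libraries, with the mean and SD of each group (n = 3) beside the points. *Peg10* is lowest in WT vehicle libraries and highest in Y428F libraries with PTH, whereas the other 3 genes lie far below the WT level in both Y428F groups.

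*Impact* lies at chr18:13088909-13126012 (GRCm39, plus strand) and was 3.91-fold below WT cells in Y428F cells with vehicle (log2 -1.97, adjusted p = 1.04e-14) and 3.74-fold lower with PTH (log2 -1.90, adjusted p = 1.35e-14, both from edgeR). It is therefore a gene that was higher with PTH in both lines and lower in Y428F cells under both treatments. Of 7 protein-coding neighbors within 1 Mb at 4 CPM or more, 6 were lower and 1 higher in Y428F cells with vehicle, with a median log2 fold change of -0.45 and a lowest value of -0.74, and the median of chromosome 18 was -0.21.

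Among the long noncoding RNAs of the set, *Airn* was lower and *Kcnq1ot1* was higher in Y428F cells. *H19* is given by its counts, as a description, because it passed the filter through its WT libraries alone. *H19*, a fetal growth-restraining RNA made from the mother's copy beside *Igf2*, was a low transcript even in WT cells, with 20, 19 and 17 counts with vehicle and 15, 14 and 16 with PTH. In Y428F cells it had 3, 0 and 0 counts with vehicle and 0 in all 3 PTH libraries. The ratio of WT to Y428F cells was 19.1 with vehicle (95% counting interval 6.20 to 95.3), and *H19* was at least 5.35-fold lower in Y428F cells with PTH, taking 3 counts per library as the floor. The interval and the bound cover counting error only and, since the filter favored a difference, are no test of the lines. The ratio with vehicle also rests on 1 library, which held all *H19* counts of the Y428F vehicle group. Over 18 alternative fits the log2 fold change of Y428F over WT cells with vehicle ran from -7.2 to -3.52.

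*Airn*, the father's-copy RNA that silences *Igf2r* in cis, had 6.08, 5.23 and 5.79 CPM in WT cells against 2.14, 2.93 and 2.29 CPM in Y428F vehicle libraries. With PTH it had 4.72, 5.54 and 5.47 CPM in WT cells against 2.33, 2.75 and 2.26 CPM in Y428F libraries. The lines did not overlap, and the log2 fold change was -1.21 with vehicle (SE 0.17, adjusted p = 5.42e-06) and -1.10 with PTH (adjusted p = 2.36e-05, both from edgeR). *Igf2r*, which lies across it on the opposite strand, was lower as well, at 382, 439 and 474 CPM in WT cells against 169, 160 and 162 CPM in Y428F vehicle libraries. The gene bodies overlap but their annotated exons share no bases. Whether counting used the strand is not stated, so reads from introns of the pair could be assigned to either gene.

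*Kcnq1ot1*, the antisense RNA that silences the cluster around *Cdkn1c* on the father's copy, had 18, 24 and 9 counts in WT and 46, 43 and 48 counts in Y428F vehicle libraries, and 15, 12 and 15 against 28, 35 and 42 with PTH. The lines were apart under both treatments, with a log2 fold change of 1.38 (SE 0.31, adjusted p = 0.000808) and 1.22 (adjusted p = 0.00384, both from edgeR). *Cdkn1c* itself, which encodes the cell cycle inhibitor p57, had 20, 5 and 15 counts in WT and 13, 27 and 28 counts in Y428F vehicle libraries. Those ranges overlap, and *Cdkn1c* did not pass the test in any comparison. *Kcnq1*, on the other strand, had 35 counts in all 12 libraries together. From the same cluster *Tssc4*, which assists spliceosome assembly, had 19.6 ± 1.63 CPM in WT cells against 21.3 ± 1.62 CPM in Y428F vehicle libraries (SD, n = 3 each) and did not pass the test.

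Smaller differences were found in 4 further genes. *Cd81* had 434, 417 and 431 CPM in WT cells against 348, 345 and 373 CPM in Y428F vehicle libraries, a log2 fold change of -0.27 (adjusted p = 0.000296 from edgeR). *Copg2* had 73.7, 76.8 and 80.4 CPM in WT cells against 65.7, 63.9 and 66.3 CPM in Y428F vehicle libraries, a log2 fold change of -0.24 (adjusted p = 0.00245 from edgeR). *Inpp5f*, a phosphoinositide phosphatase, had 26.2, 27.3 and 25.3 CPM against 22.2, 20.8 and 21.2 CPM, a log2 fold change of -0.29 (adjusted p = 0.00767 from edgeR). In all 3 genes the libraries of the lines did not overlap, and with PTH they were lower by log2 -0.29, -0.42 and -0.47. Their protein-coding neighbors within 1 Mb, chosen as above, had median log2 fold changes of 0.19, -0.13 and -0.18 with vehicle. *Snrpn*, a small nuclear ribonucleoprotein of splicing, was higher in Y428F cells, at 17.5, 16.4 and 17.5 CPM against 14.0, 10.0 and 11.4 CPM with vehicle (log2 0.54, adjusted p = 0.000639 from edgeR) and by log2 0.67 with PTH (adjusted p = 7.5e-05 from edgeR). *Snrpn* and *Ube3a* lie in the same imprinted domain on chromosome 7, and *Ube3a* did not pass the test between the lines under either treatment (adjusted p = 0.171 and 0.728 from edgeR).

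Some of these counts share sequence with other genes. *Copg2* shares 34.5% of its exon bases with *Mest* on the opposite strand, and *Mest*, a hydrolase-like protein known as a mesoderm marker, had only 18 counts in all libraries against 14970 for *Copg2*. *Inpp5f* shares 21.7% of its exon bases with *Mcmbp*, which has 14993 counts. On the same strand, *Snrpn* shares 1250 bases with *Gm38393*, which has 105 counts, and 216 bases with *Snurf*, which has 9 counts. *Mcts2* is a retrocopy of *Mcts1* and lies within the gene body of *H13* on the same strand, which has 36888 counts. Its values are therefore uncertain. They were 3.65, 4.26 and 2.42 CPM in WT cells against 5.04, 4.40 and 4.09 CPM in Y428F vehicle libraries, which overlap. *Mest*, *Mcts2* and *Nnat*, a small proteolipid with 3 to 10 counts per library, did not pass the test in any comparison.

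The genes were also counted by the parent of the expressed copy, with no test, against the 45.1% and 45.7% of all genes that differed. The copy was taken from general knowledge and was not measured in these cells. Which copy is used can depend on the tissue, as for *Grb10*, so the split need not hold here. With vehicle, 9 of 15 genes expressed mainly from the mother's copy were tested, and 1 was higher and 4 were lower in Y428F cells. Of 20 expressed mainly from the father's copy, 10 were tested, and 3 were higher and 4 lower. With PTH the counts were 2 and 4 for the mother's and 3 and 4 for the father's copy. Without the 4 genes that passed the filter through 1 line, the mother's copy had 0 higher and 3 lower of 6 under both treatments. The father's copy had 3 higher and 4 lower of 9 under both. The shares of all genes still include such genes.

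Promoter windows from 250 bases before to 50 bases after the start (RefSeq, GRCm38.p6) were found for 29 of the 35 genes, with 39 windows in all. They were not found for *H19*, *Peg10*, *Sgce*, *Cdkn1c*, *Impact* and *Rtl1*. The cAMP response element, the site of the factor CREB that acts downstream of PTH through cAMP and protein kinase A, was searched as TGACGTCA on both strands. It was present in 4 of 39 windows of the set and in 588 of 32851 windows of all genes (1.79%). All 4 belong to genes that were silent or nearly so also with PTH, namely *Meg3*, *Zdbf2*, *Peg3* and *Usp29*. The last 2 are a head-to-head pair whose starts lie 108 bases apart in GENCODE M39, and their RefSeq windows hold the same site. A match of letters is not evidence of binding. The stretches are shown because they carry the element next to genes with at most 2 counts in any library, with the element in capitals. They are Meg3 at chr12:109540896-109540995 on the plus strand, Zdbf2 at chr1:63273169-63273268 on the plus strand and a stretch at chr7:6730501-6730600 that spans the RefSeq start of Usp29 and is written on its strand, the plus strand, with the element just past that start.
Meg3: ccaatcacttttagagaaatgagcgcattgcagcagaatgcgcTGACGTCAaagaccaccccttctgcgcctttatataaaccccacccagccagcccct
Zdbf2: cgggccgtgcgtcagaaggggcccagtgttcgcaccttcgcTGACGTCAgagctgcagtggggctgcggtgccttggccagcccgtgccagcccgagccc
Peg3-Usp29: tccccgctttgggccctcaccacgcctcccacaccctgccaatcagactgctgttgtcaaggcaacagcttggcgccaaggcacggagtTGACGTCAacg

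The short form of the element, TGACG, which the full form contains, was present in 13 of 39 windows of the set and in 20.8% of all windows. The motif TGCCGC of ZFP57, the zinc finger protein that keeps methylation on imprints, was present in 12 of 39 windows against 11.6% of all. These 12 windows belong to 11 genes, since 2 overlapping *Mest* windows hold the same sites. Overlapping windows, such as these and those of *Peg3* and *Usp29*, were counted separately for every motif. The core GCCATNTT of YY1 was present in 1 of 39, that of *Ube3a*, against 6.05% of all. The motif GGAATG of the TEAD factors, the DNA-binding partners of YAP, was present in 5 of 39 windows against 14.7% of all. Apart from the short form, none of these motifs is contained in the element. The 5 windows with the TEAD motif belong to *Snrpn* and to *Peg3*, *Rian*, *Usp29* and *Zim1*, which had at most 2 counts in any library. *Snrpn* held 3 matches in 1 of its 4 windows, at chr7:60005200-60005299 on the minus strand. The stretch is shown for that reason, with the matches on either strand in capitals. The windows of the set held a median of 15 CG dinucleotides against 7 for all windows. Both forms of the cAMP response element and the ZFP57 motif contain CG. Their shares were not compared with windows of like CG content.
Snrpn: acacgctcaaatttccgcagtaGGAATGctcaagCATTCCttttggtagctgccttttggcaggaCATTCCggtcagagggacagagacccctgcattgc

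A second list of 50 other imprinted genes, of which 48 were matched and 30 tested, was compared in the same way. Against the 11.8% of all genes that changed with PTH in WT cells, PTH upregulated 1 of 26 tested genes of this list, *Jade1*, a histone acetylation scaffold, from 54.4, 49.9 and 58.3 CPM to 91.5, 91.1 and 77.4 CPM (log2 0.68, adjusted p = 0.000139 from edgeR). In Y428F cells, where 12.4% of all genes changed, it upregulated 2 of 30, *Jade1* again and the decoy receptor *Tnfrsf22* (log2 0.43 and 0.23, adjusted p = 0.00022 and 0.0248 from edgeR). With vehicle, 22 of 30 differed between the lines, 11 higher and 11 lower in Y428F cells, against the 45.1% of all genes given above. Without *Cntn3*, *Cobl*, *Dcn* and *Pon1*, which passed the filter through the libraries of 1 line only, 21 of 26 differed, 10 higher and 11 lower. The share of all genes was not recomputed without such genes.

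The 6 genes of this list with the lowest adjusted p at 2 CPM or more were *Tspan32*, *Peg12*, *Igf2r*, *Peg13*, *Pon3* and *Atp10a*. *Tspan32*, a tetraspanin, had 1.59, 1.08 and 0.59 CPM in WT cells against 18.6, 15.9 and 17.5 CPM in Y428F vehicle libraries (log2 3.98, adjusted p = 4.09e-12 from edgeR). *Peg12* of the Prader-Willi region rose from 4.02, 3.35 and 3.60 to 15.7, 14.9 and 15.1 CPM (log2 2.06, adjusted p = 9.02e-12 from edgeR). *Atp10a*, a phospholipid flippase of the same region, rose by log2 0.96 (adjusted p = 4.52e-09 from edgeR). *Igf2r*, the receptor that clears IGF2, fell by 1.40 on the log2 scale (adjusted p = 6.52e-11 from edgeR). The noncoding RNA *Peg13* fell by 1.42 (adjusted p = 1.78e-10 from edgeR). *Pon3*, an esterase in the *Peg10* cluster, fell by 0.94 (adjusted p = 1.31e-09 from edgeR). *Igf2* itself, at 0.370, 0.739 and 0.268 CPM in WT cells against 0.602, 0.910 and 1.42 CPM in Y428F vehicle libraries, passed the test only with PTH (log2 2.85, adjusted p = 0.00267 from edgeR), where the WT libraries lay at 0.118, 0 and 0.291 CPM.

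**Figure D5:**
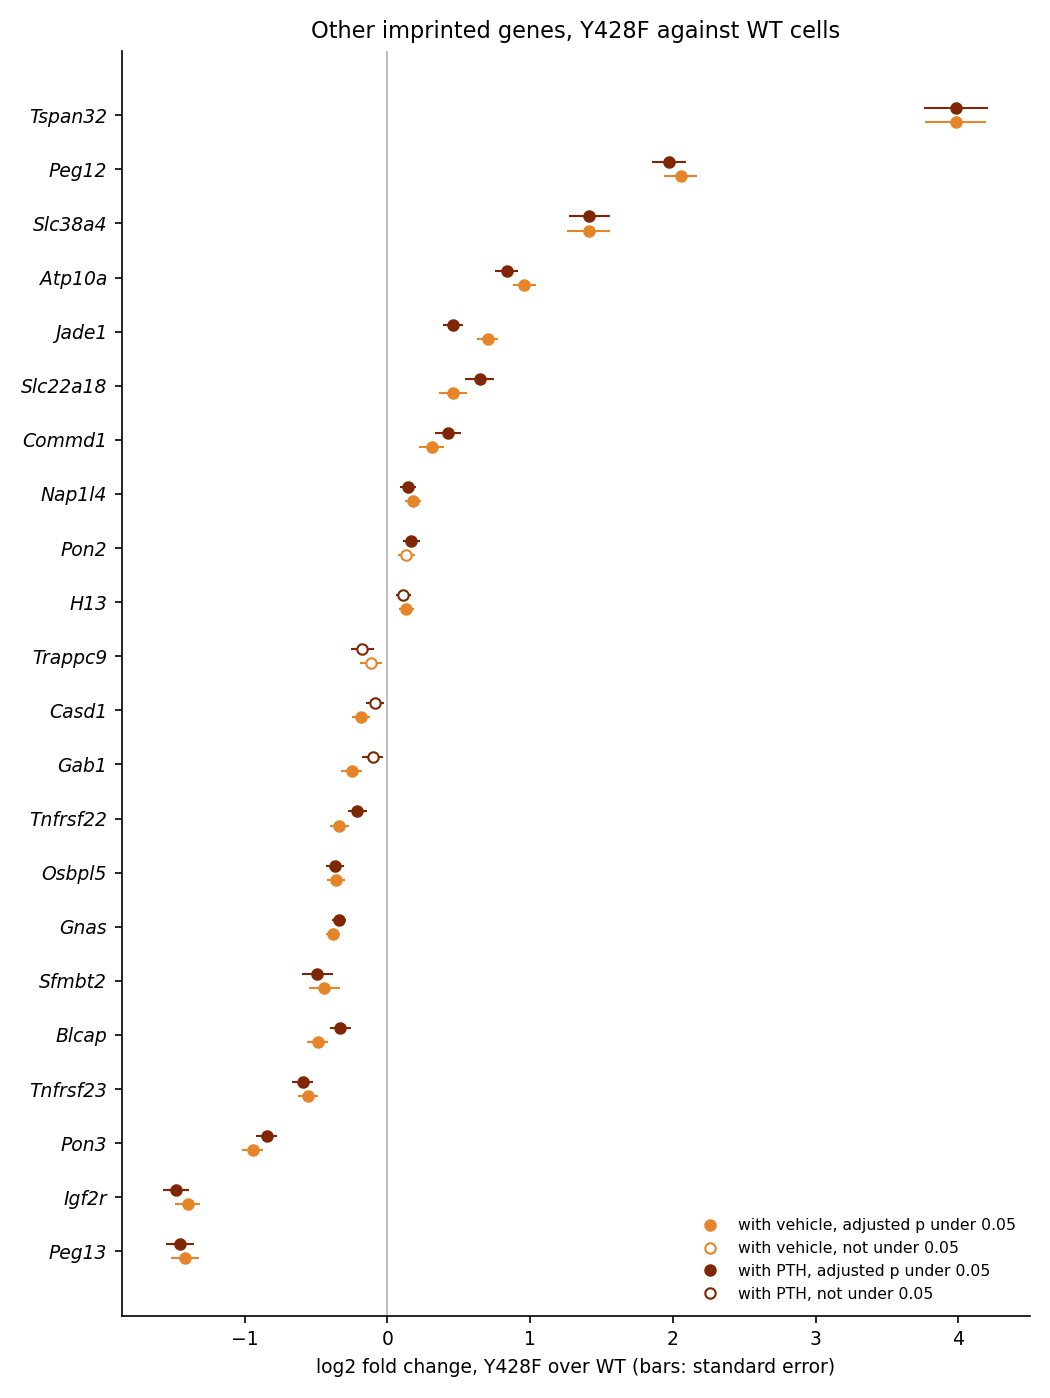
Log2 fold change of Y428F over WT cells, with standard error, for the 22 genes of the second list with a mean of at least 2 CPM, with vehicle and with PTH. Filled points have an adjusted p under 0.05 from edgeR; *Tspan32* lies near 4 and *Peg13* and *Igf2r* near -1.4 under both treatments.

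Of 26 genes that set or keep imprints, 23 were tested. With vehicle, 9 were higher and 7 lower in Y428F cells, against the 45.1% of all genes that differed. *Setdb1*, the histone methyltransferase recruited by ZFP57 and its partner, had 190, 220 and 212 CPM in WT cells against 98.2, 98.2 and 97.2 CPM in Y428F vehicle libraries (log2 -1.08, adjusted p = 6.53e-12 from edgeR). *Uhrf1*, which brings the maintenance DNA methyltransferase to newly copied DNA, went the other way, from 80.2, 79.3 and 88.5 to 164, 157 and 168 CPM (log2 0.98, adjusted p = 5.3e-11 from edgeR). The polycomb genes *Suz12* and *Ezh2* rose by log2 0.76 and 0.55 (adjusted p = 1.23e-09 and 1.2e-07 from edgeR). The histone deacetylase *Hdac2* rose by log2 0.54 and *Smchd1*, a silencing factor of the inactive X and of imprinted clusters, by log2 0.54 (adjusted p = 1.43e-07 and 8.47e-06 from edgeR). With PTH, 2 rose and 3 fell in WT cells and 1 rose and 5 fell in Y428F cells, where 11.8% and 12.4% of all genes changed. *Setdb1*, *Ezh2* and the DNA demethylation enzyme *Tet2* fell in both lines, by 0.29, 0.31 and 0.53 on the log2 scale in WT cells (adjusted p = 0.0102, 0.016 and 0.0054 from edgeR).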

How the data were processed

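RNA from 12 libraries of W-20 cells was sequenced. Per the labels and the study's methods, the authors aligned reads with STAR 2.7.10b to GRCm39 with GENCODE release M31 and deposited RSEM expected counts per gene. Gene-level counts pool starts, isoforms and parental copies, and whether the library or the counting used the strand is not given in the sources used here. Expected counts were rounded and tested with edgeR 4.0.16 (R 4.3.3; quasi-likelihood, TMM scaling, total of at least 10 counts, Benjamini-Hochberg adjustment over all genes). The response of WT cells was fitted on 6 libraries, and the other comparisons on all 12. DESeq2 1.42.0 was an alternative. CPM use TMM-scaled totals. TPM and gene positions use GENCODE release M39. The members and lists were chosen with earlier results of these data known. Genes of the other imprinted list and of the regulator list are named by the 6 lowest adjusted p between the lines with vehicle at a mean of at least 2 CPM. *Jade1*, *Tnfrsf22*, *Igf2*, *Tet2* and the neighboring genes were named after their values were seen. Of the other imprinted genes, 2 genes could not be matched to a single row. No 2 libraries were duplicates.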

Additional observations from a re-analysis of the deposited data

How the results depend on the processing

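Every log2 fold change of a gene of the set called in a comparison kept its direction in each refit made. The refits used the other scalings, the other filters, DESeq2, the replicate block and each library left out. Of 522 such refits, 504 stayed past the threshold and 18 lost the call. *Asb4* and *Ppp1r9a* had no refit under the filter of at least 10 counts in at least 3 libraries. Genes of the other imprinted list and of the regulator list were not refitted. Of 1048 refits of values that had not passed the test, 4 gained a call: *Copg2* with PTH in Y428F cells with library totals and without WT vehicle replicate 1, *Ube3a* between the lines with vehicle under library totals (adjusted p = 0.0273 from edgeR), and *Mcts2* between the lines with PTH with no filter (adjusted p = 0.0465 from edgeR). Another 74 changed sign and stayed uncalled (lowest adjusted p = 0.618), none of them a fold change given as a number above. The count of genes upregulated by PTH in WT cells was 1, *Peg10*, in place of 3 both with library totals as the only scaling and at an adjusted p under 0.01 with a log2 fold change beyond 0.3. When libraries were left out singly, the count with PTH was 1 to 3 in WT cells and 1 to 3 in Y428F cells, and the counts were 11 to 12 and 11 to 13 between the lines with vehicle and with PTH, and 0 to 0 for the difference in response. The count with PTH was 1 without WT vehicle replicate 3 or WT PTH replicate 1, and 1 in Y428F cells without vehicle replicate 1. *Ppp1r9a* with PTH lost its call without WT or Y428F PTH replicate 2 or 3, and *Asb4* without replicate 3 of the Y428F group compared. Same-numbered libraries did not visibly deviate together (mean correlation 0.0019 over 18 pairs, against -0.00095 over 36 other pairs). This does not show that the numbers carry no pairing. Without the 4 genes that passed the filter through 1 line, an alternative chosen after seeing the data, 10 genes differed between the lines under each treatment. With the replicate block, 2 genes were called with PTH in WT cells and the call of *Ube3a* was lost (log2 0.19). At 17127897 to 19057319 counts a library, genes with under 10 counts in all could not be compared.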
